A study of Mus musculus with 6 samples.

Results

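The regulators of DNA methylation and chromatin insulation that act on imprinted loci were examined in mouse bone marrow mesenchymal stromal cells. The set holds 10 genes, chosen by symbol for their known function, although with earlier results of these data known. They are Dnmt1, Dnmt3a, Dnmt3b, Tet1, Tet2, Tet3, Ctcf, Uhrf1, Zfp57 and Trim28. All 10 were measured, by 13 of the 25917 probe sets that carried a gene symbol, out of 22311 named genes in all. For a gene with several probe sets the brightest, by its mean over the arrays, stands for it. Tet1 had 3 probe sets, Tet3 had 2, and each of the other members had 1. Total RNA from 6 cultures was hybridised to Affymetrix arrays, with 1 array for each of 3 tetraploid and 3 diploid cultures. The labels describe tetraploid I as primary cells, tetraploid II as an established line and tetraploid III as an artificial tetraploid that was cloned, so the last 2 each stand for a single line. They describe diploid I as clonal, and primary cells were used for diploid II as well as for diploid III. Ploidy had been assigned from DNA content by propidium iodide staining and checked by spectral karyotyping, all cells were grown in the same named medium, and the labels give no strain, age, genotype or drug treatment. The title of the series names suppression of H19, an imprinted non-coding RNA, so the comparison asks whether genes that write, remove, protect or read the imprint also differed with ploidy.

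Methyl groups on cytosines of CpG pairs carry parental imprints through cell division. At replication UHRF1 binds the half-methylated daughter DNA and recruits DNMT1, which copies the mark, whereas DNMT3A and DNMT3B place new marks and the TET enzymes oxidise methylcytosine toward its removal. ZFP57 binds a methylated motif at imprint control regions and brings TRIM28, a corepressor, with its histone and DNA methyltransferase partners. CTCF binds the unmethylated maternal control region between Igf2 and H19 and insulates Igf2 from enhancers that H19 uses.

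Values are log2 expression after RMA, the deposited scale, so a difference of 1 is a factor of 2 on these arrays. The array medians lay between 4.54 and 4.78. The interquartile range was 2.75 on diploid III and 3.16 to 3.24 on the other arrays. The lower quartile was 4.02 on diploid III and 3.82 to 3.84 on the other arrays. Of 15 stromal markers 8 lay above the median of every array (Cd44, Col1a1, Col1a2, Itgb1, Ly6a, Vcam1, Pdgfrb and Pdgfra), and Lum and Lepr lay below it on every array. The other 5 were mixed, with Nt5e and Dcn below the median on 3 arrays each, Thy1 on 2 and Alcam and Eng on 1. Eng was at 3.80 in tetraploid II against 8.80 to 10.78 elsewhere. Of 10 endothelial markers 6 lay below the median of every array, and Cdh5, Flt1, Esam and Egfl7 were mixed. Cdh5, the endothelial cadherin, was at 11.03 in diploid III and at 3.70 to 3.79 elsewhere. All 8 lymphocyte markers and 7 of 10 myeloid markers lay below the median of every array. Cd68 and Lyz2 were mixed, and 1 myeloid marker lay above the median of every array. The mean of the lymphocyte list was also highest in diploid III, at 4.06 against 3.72 to 3.77 elsewhere. So was the mean of 11 pluripotent and germ cell markers, at 4.0 against 3.76 to 3.86 elsewhere. Both means lay near the raised lower quartile of that array, 4.02. In tetraploid II the macrophage genes Cd68 and Lyz2 were at 7.97 and 7.0, against at most 4.96 and 4.48 elsewhere. Of all 10 myeloid markers 3 were highest and 2 lowest in tetraploid II, and 6 were highest in diploid III. The list means were 5.15 in diploid III and 3.83 to 3.90 elsewhere for 10 endothelial markers, and 4.58 in tetraploid II, 4.36 in diploid III and 3.87 to 3.95 elsewhere for 10 myeloid markers. The part of such cells in the results below was not tested. In bulk RNA a smaller share of cells that express a gene and less RNA per cell cannot be told apart.

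Because UHRF1 and DNMT1 act at replication, the promoters were searched for motifs of E2F, the transcription factor family that drives genes of the G1 to S transition, and the matches are shown for the 4 members that had any. RefSeq windows of 250 bases before to 50 after an annotated start (GRCm38.p6) were available for all 10 members, 17 windows in all. The motifs were TTCGCGC, its variant TTGGCGC and its other variant TTCCCGC, read on both strands, with overlapping matches counted by their start. At least 1 occurred in 5 of the 17 windows, which belonged to Dnmt1, Ctcf, Uhrf1 and Trim28, and in 8.07% of all 32851 windows. By gene it was 4 of 10 members, beside 9.2% of all genes with a window. Each motif holds a CpG pair, and 26.49% of all windows held at least 20 CpG pairs. The member windows with a match held 12 to 47 CpG pairs and those without held 2 to 57. The shares were not matched for CpG content. The 250 bases before the outermost start of Uhrf1 (chr17:56303087-56303336, plus strand) and of Trim28 (chr7:13023902-13024151, plus strand) and 30 bases round a match for Uhrf1 (chr17:56304118-56304147, plus strand), Dnmt1 (chr9:20952824-20952853, minus strand) and Ctcf (chr8:105636374-105636403, plus strand) read as follows, with the motif in capitals.
Uhrf1, outermost start: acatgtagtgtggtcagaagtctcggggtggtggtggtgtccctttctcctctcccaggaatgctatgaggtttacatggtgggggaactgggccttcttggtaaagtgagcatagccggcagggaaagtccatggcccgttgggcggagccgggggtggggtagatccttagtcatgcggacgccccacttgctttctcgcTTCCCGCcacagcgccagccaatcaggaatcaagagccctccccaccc
Uhrf1, inner start: ccgagtcgggtTTCGCGCgcccaggcgtct
Dnmt1, inner start: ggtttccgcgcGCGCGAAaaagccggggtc
Trim28: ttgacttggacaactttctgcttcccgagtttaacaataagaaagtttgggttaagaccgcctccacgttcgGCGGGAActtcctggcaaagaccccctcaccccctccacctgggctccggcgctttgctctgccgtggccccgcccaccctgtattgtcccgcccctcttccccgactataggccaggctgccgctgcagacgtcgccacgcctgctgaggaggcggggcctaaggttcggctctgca
Ctcf: gcttttgaaagTTGGCGCccggggccgcct
The Dnmt1 window with the sequence above, at an inner start, held 3 matches and 33 CpG pairs. Another Dnmt1 window at an inner start held 0 matches and 12 CpG pairs. The Dnmt1 window at the outermost start held 0 matches and 2 CpG pairs. The 3 Zfp57 windows held 0 matches and 4 to 9 CpG pairs, against a median of 7 over all windows. These are matches of letters and say nothing of binding in these cells.

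Dnmt1, Uhrf1 and Trim28 each had all 3 tetraploid values below all 3 diploid values on the deposited scale. Of these 3 only Trim28 kept that separation both with arrays centred on their medians and after quantile normalisation. No member passed the threshold adjusted over all named probe sets. The count past that threshold was 0 of 10 members and 0 of 25917 probe sets (limma, smallest adjusted p = 0.876). At an unadjusted p under 0.05 there were 2 members, Trim28 and Dnmt1, against 5.14% of all probe sets, and an ordinary linear model gave 1 member, Trim28, against 4.34% of all probe sets. Such an unadjusted p is called nominal below. Groups did not overlap for 3 members, beside 12.1% of all probe sets. In all 3 the tetraploid samples were lower, beside 7.1% of all probe sets, and for 0 members were they higher without overlap, beside 4.97%. The member counts take the brightest probe set of each gene, and the dimmer Tet3 probe set was wholly higher in the tetraploid samples. Of the 10 members 6 had a lower tetraploid mean and 4 a higher one, with a median log2 difference of -0.080, beside 59.9% lower and a median of -0.043 over all named probe sets. Leaving out 1 array moved the members' median from -0.028 (without diploid II) and -0.033 (without tetraploid II) to -0.15 (without diploid III), and the lower count from 5 to 7.

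**Figure D1:**
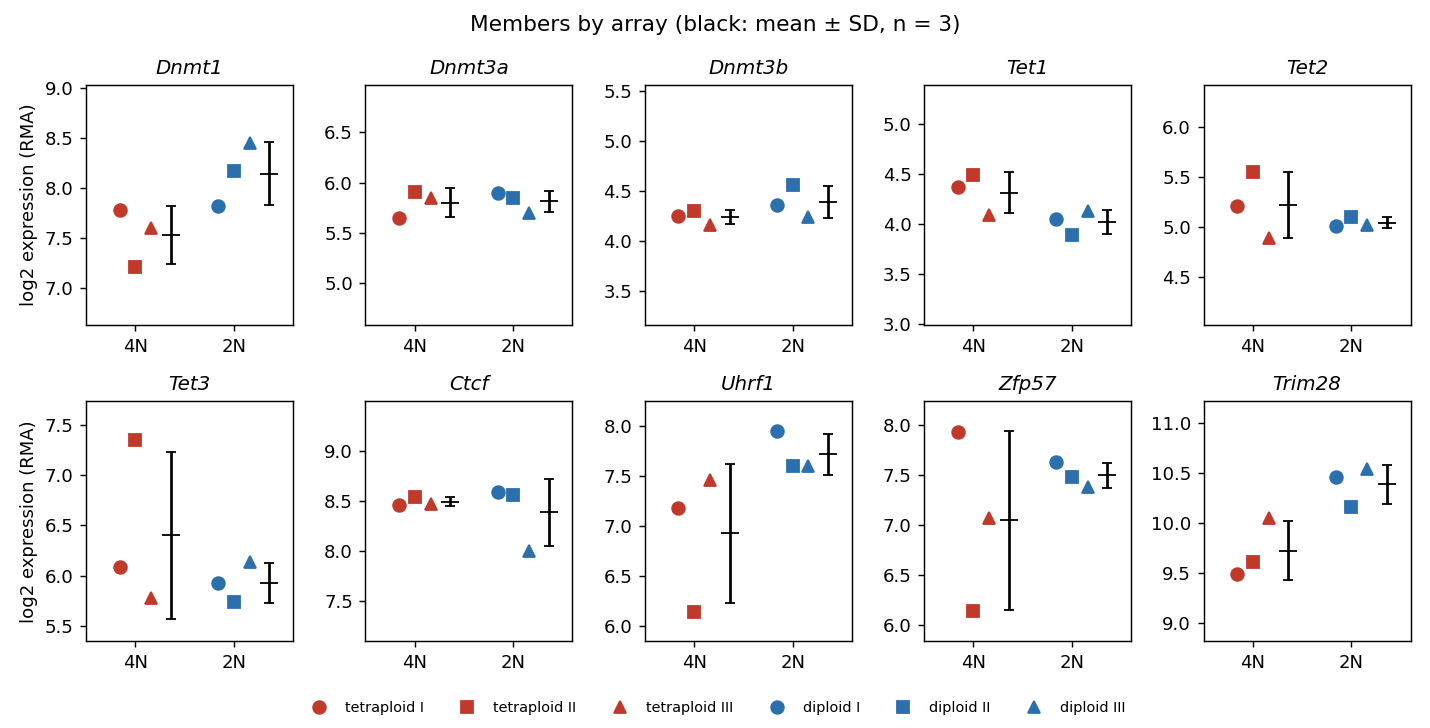
Log2 expression of the 10 members (brightest probe set each) on the 6 arrays, tetraploid (4N, red) and diploid (2N, blue), with the repeat number as the symbol and mean ± SD in black; every panel spans 2.4 on the log2 scale around the gene's own mid-range. Trim28, Dnmt1 and Uhrf1 separate the groups, and tetraploid II stands apart for Uhrf1, Zfp57 and Tet3.

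Trim28, the corepressor recruited by ZFP57 and other zinc finger proteins, was at 9.49, 9.61 and 10.05 in the tetraploid samples, in the order I, II and III, and at 10.45, 10.16 and 10.54 in the diploid samples in the same order. The groups did not overlap, and the nearest values were those of tetraploid III and diploid II, 10.05 and 10.16. The means were 9.72 ± 0.29 and 10.38 ± 0.20 (SD, n = 3 each), a log2 difference, tetraploid minus diploid, of -0.66 (SE 0.19, 95% interval -1.14 to -0.19, limma unadjusted p = 0.0145, adjusted p = 0.876). In the authors' deposited table the fold of diploid over tetraploid for Trim28 was 1.58. Its unadjusted p stayed below 0.05 in each of 16 alternatives, including the 6 that left out 1 array (differences of -0.83 to -0.55), and its smallest adjusted p in them was 0.382.

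Dnmt1, the maintenance methyltransferase, was at 7.78, 7.21 and 7.60 in the tetraploid samples and at 7.82, 8.17 and 8.44 in the diploid samples. Tetraploid I and diploid I were nearly level, and the highest value was that of diploid III. The means were 7.53 ± 0.29 and 8.14 ± 0.31 (SD, n = 3 each), a log2 difference of -0.61 (SE 0.22, 95% interval -1.17 to -0.057, limma unadjusted p = 0.036, adjusted p = 0.876). Dnmt1 was below 0.05 unadjusted in 6 of 16 alternatives. Among the arrays left out 1 at a time, it missed that level without tetraploid II (-0.45), tetraploid III (-0.64), diploid II (-0.60) or diploid III (-0.46).

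Uhrf1, the reader that brings DNMT1 to newly replicated DNA, was at 7.18, 6.15 and 7.47 in the tetraploid samples and at 7.95, 7.60 and 7.60 in the diploid samples. Tetraploid II lay more than 1 below every other array, and the rest spanned 7.18 to 7.95. The means were 6.93 ± 0.69 and 7.72 ± 0.20 (SD, n = 3 each), a log2 difference of -0.79 (SE 0.36, 95% interval -1.69 to 0.11, limma unadjusted p = 0.076, adjusted p = 0.876). Without tetraploid II the difference was -0.39, and there the groups stay apart by construction. The groups overlapped for Uhrf1 once each array was centred on its median, and for Dnmt1 after quantile normalisation, while those of Trim28 stayed apart under both scalings. Quantile normalisation also separated the groups for Tet1, with the tetraploid samples higher.

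The de novo methyltransferases showed no separation of the groups. Dnmt3a was at 5.64, 5.91 and 5.85 in the tetraploid samples and at 5.89, 5.85 and 5.70 in the diploid samples, so both groups covered nearly the same range. Its log2 difference was -0.011 (SE 0.11, 95% interval -0.29 to 0.27), the narrowest interval of the 10 members. The sign of that difference turned without tetraploid I, diploid I or diploid II. Dnmt3b, the enzyme that is abundant in early embryos, was at 4.26, 4.30 and 4.16 against 4.36, 4.56 and 4.24, which was below the array median on 5 arrays and level with it on diploid II. Its log2 difference was -0.15 (SE 0.11, 95% interval -0.43 to 0.14), and it was -0.063 without diploid II and -0.074 after quantile normalisation.

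**Figure D2:**
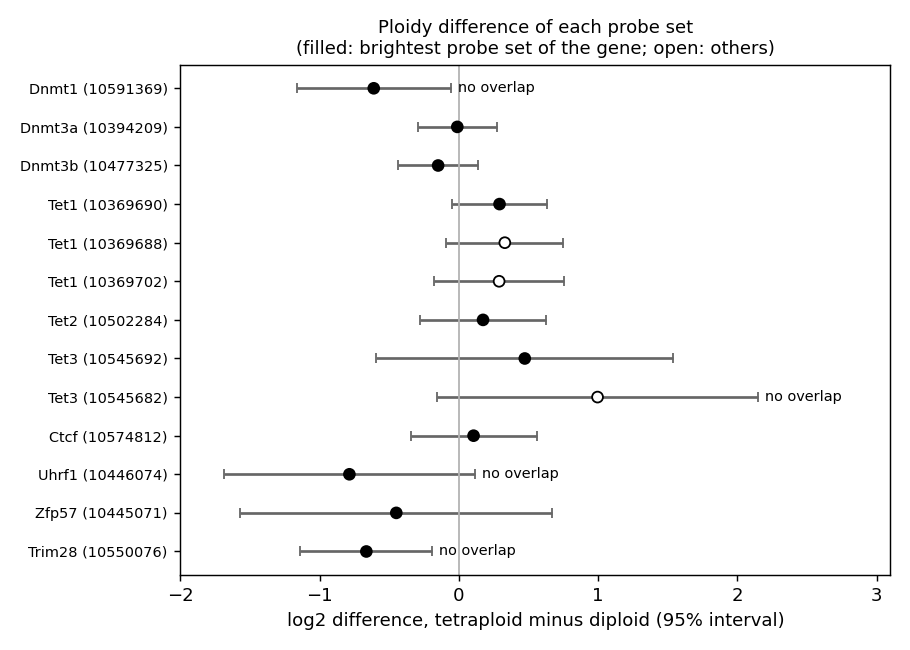
Log2 difference, tetraploid minus diploid, of each of the 13 probe sets of the 10 members with its 95% interval from limma (n = 3 arrays a group); filled points are the brightest probe set of a gene, open points its others, and probe sets whose groups do not overlap are marked. The intervals of Dnmt1 and Trim28 lie below 0, and the intervals of the other 11 probe sets include 0.

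All 3 TET genes had a higher tetraploid mean, and for each of them tetraploid II had the highest of the 6 values. Tet3 was at 6.08, 7.35 and 5.77 in the tetraploid samples and at 5.92, 5.73 and 6.13 in the diploid samples, a log2 difference of 0.47 (SE 0.43, 95% interval -0.59 to 1.54). Tetraploid II lay above 7 and the other arrays between 5.73 and 6.13, with the groups overlapping. Without tetraploid II the Tet3 difference was -0.000467.

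The dimmer Tet3 probe set, 10545682, gave 5.78, 7.24 and 5.55 against 5.38, 5.14 and 5.06, again with tetraploid II far above the rest. On this probe set the tetraploid values lay wholly above the diploid values, with a log2 difference of 0.996 (SE 0.46, 95% interval -0.16 to 2.15, limma unadjusted p = 0.0782). The Tet3 probe sets therefore disagreed on the overlap of the groups, and the mean of both gave 0.73. The sources used here do not say which transcripts each probe set covers.

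Tet1, the family member best known from pluripotent cells, was at 4.36, 4.48 and 4.09 against 4.04, 3.89 and 4.12, below the median of every array. Its log2 difference was 0.29 (SE 0.14, 95% interval -0.051 to 0.64, limma unadjusted p = 0.0815), and tetraploid III lay within the diploid range. The other Tet1 probe sets, 10369688 and 10369702, differed by 0.33 (SE 0.17) and 0.29 (SE 0.19). Tet2, the member known from blood-forming cells, was at 5.21, 5.55 and 4.89 against 5.01, 5.11 and 5.03, a log2 difference of 0.17 (SE 0.18, 95% interval -0.28 to 0.62). Tet2 ranged over 0.66 among the tetraploid samples and over 0.10 among the diploid samples, and its difference was 0.0064 when tetraploid II was left out and 0.34 when tetraploid III was.

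Zfp57, the zinc finger protein that protects imprints in the early embryo, lay well above the array medians in all 6 cultures. It was at 7.94, 6.14 and 7.07 in the tetraploid samples and at 7.63, 7.48 and 7.38 in the diploid samples. The tetraploid samples held both the highest and the lowest Zfp57 value, so that their SD was 0.90 against 0.12 in the diploid samples. The log2 difference was -0.45 (SE 0.45, 95% interval -1.57 to 0.67). It was 0.00375 without tetraploid II, -0.89 without tetraploid I and -0.26 with origin as a covariate. Of 11 pluripotent and germ cell markers, 10 lay below the median of every array, among them Pou5f1 at 3.34 to 3.61 and Dazl at 3.53 to 3.82. The exception was Nanog, at 4.90 in tetraploid I and 4.10 to 4.43 elsewhere.

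Ctcf was at 8.46, 8.54 and 8.47 in the tetraploid samples and at 8.59, 8.56 and 8.0 in the diploid samples. The 3 tetraploid values agreed to within 0.079, and diploid III was the array apart. The log2 difference was 0.11 (SE 0.18, 95% interval -0.35 to 0.56), and -0.087 without diploid III. On the same arrays H19, near the CTCF-bound control region, was at 3.92, 3.97 and 3.75 against 8.36, 10.46 and 8.33. Igf2, on the other side of that region, was at 5.79, 4.98 and 6.30 against 4.63, 6.75 and 4.74. Ctcf in diploid I and II lay at most 0.13 from any tetraploid value, and in diploid III it was lower, at 8.0. The lowest diploid value of H19 was 4.36 above its highest tetraploid value. Any part of Ctcf in the H19 values was not tested.

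Diploid III had the lowest mean of the 6 arrays for 6 of the 9 gene lists around the members and for all their genes together, 7.22 against 7.35 to 7.67 elsewhere. The lists of CTCF and TRIM28 partners were among those 6. For 25 cohesin and CTCF partner genes the mean was 7.65 in diploid III and 7.94 to 8.09 elsewhere, and 12 of the 25 genes were lowest there, beside 22.8% of all probe sets. For 18 genes of the TRIM28 complex and imprint protection the mean was 7.58 in diploid III and 7.90 to 8.12 elsewhere, with 9 genes lowest there. Trim28 itself went the other way and was highest in diploid III, as was Dnmt1, beside 37.9% of all probe sets. Diploid III was the array with the narrower interquartile range and the raised lower quartile. It also had the highest means of the endothelial, the lymphocyte and the pluripotent and germ cell marker lists. The part of these features in the values was not tested.

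Tetraploid II, the cell line, was the highest or lowest of the 6 arrays for 7 of the 10 members, beside 37.2% of all probe sets. This sample was singled out after its values were seen. It was lowest for Dnmt1, Uhrf1 and Zfp57 and highest for Dnmt3a, Tet1, Tet2 and Tet3, although for Dnmt3a by only 0.018, beside 21.3% of all probe sets lowest and 15.9% highest there. Tetraploid II was also lowest for 14 of 15 mitosis genes and for 8 of 21 S phase genes. The mean of the mitosis list was 6.74, 5.82 and 6.37 in the tetraploid samples and 7.73, 7.10 and 6.62 in the diploid samples. The mean of the S phase list was 6.95, 6.52 and 6.82 in the tetraploid samples and 6.93, 7.27 and 6.85 in the diploid samples, so the groups overlapped in both lists. Uhrf1, with its extremes in tetraploid II and diploid I, had the same lowest and highest array as the mitosis list. Dnmt1 was highest in diploid III, which had the lowest diploid mean of both lists. The part of proliferation in the members' values was not tested.

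**Figure D3:**
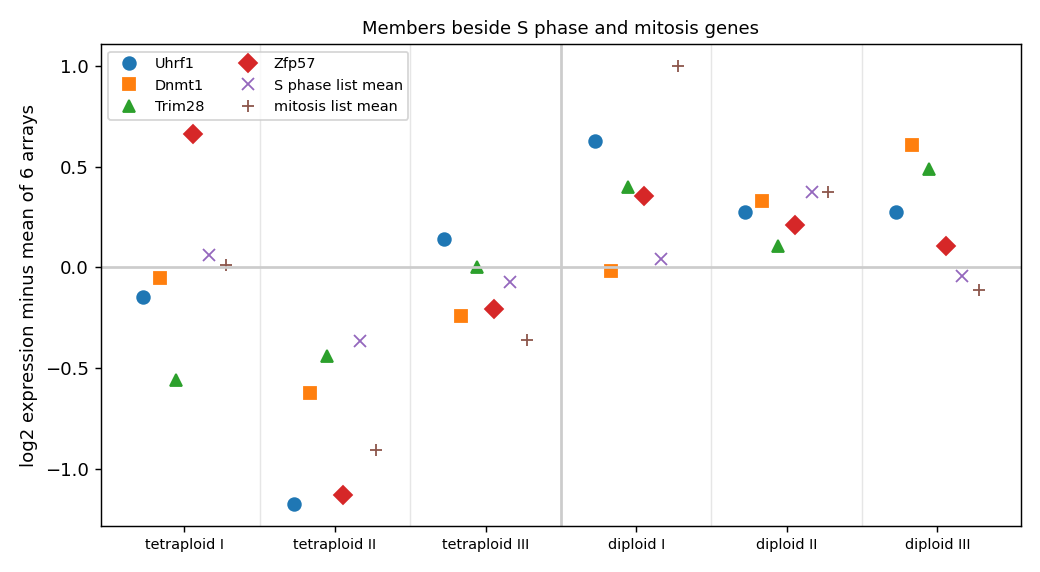
Uhrf1, Dnmt1, Trim28 and Zfp57 on each array, as log2 expression minus the gene's mean over the 6 arrays, beside the means of 21 S phase and 15 mitosis genes treated the same way. In tetraploid II Uhrf1 and Zfp57 lie more than 1 below their means together with the low mitosis mean, while in diploid III Dnmt1 and Trim28 are at their highest and the mitosis mean is not.

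Among all other named genes, the profiles closest to a member over the 6 arrays were listed for the 5 members that spanned at least 1 on the log2 scale, by the root mean square difference between centred profiles. The closest to Uhrf1 were Pxk at 0.0910, Wtip at 0.110 and Myc at 0.121. The closest to Dnmt1 were Zmiz1 at 0.0895, Lig1, the replicative DNA ligase, at 0.0951 and Gm8304 at 0.106. The closest to Trim28 were Usp22 at 0.0755, Mark4 at 0.0935 and Gramd1a at 0.0940. The closest to Tet3 were Acyp2 at 0.0936, Ndnf at 0.0955 and Cfap100 at 0.104, and the closest to Zfp57 were Zyx at 0.146, Golm1 at 0.169 and Etv6 at 0.171. With 22311 genes and 6 arrays some profiles are close by number alone, and these are a description.

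Origin was partly mixed with ploidy, so the difference was also taken within each origin. Among primary cultures tetraploid I was set against the mean of diploid II and III, and among lines and clones the mean of tetraploid II and III was set against diploid I. Trim28 was lower in both, with log2 differences of -0.86 (SE 0.31) in primary cultures and -0.62 (SE 0.31) in lines and clones. Dnmt1 was lower in both, at -0.52 (SE 0.27) and -0.41 (SE 0.27), and so was Uhrf1, at -0.42 (SE 0.62) and -1.14 (SE 0.62). For these 3 genes the shared direction follows from groups that do not overlap and adds nothing to it.

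Zfp57 had opposite signs, 0.50 (SE 0.45) in primary cultures and -1.02 (SE 0.45) in lines and clones. The difference between origins for Zfp57 was -1.52 (SE 0.64, limma unadjusted p = 0.0806, adjusted p = 0.9998). Ctcf also had opposite signs, 0.18 and -0.090 (SE 0.31 each), so that 2 of 10 members did, beside 43.8% of all probe sets. At nominal p under 0.05 there were 0 members in primary cultures, beside 4.33% of probe sets, 0 in lines and clones, beside 2.64%, and 0 for the difference between origins, beside 2.68% (limma). At an adjusted p under 0.05 there were 0 members and 0% of probe sets for the difference between origins (limma, smallest adjusted p over all probe sets = 0.776). The spread was taken from the pairs of arrays that share a ploidy and an origin, and the single arrays of the other combinations were taken to have that spread.

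**Figure D4:**
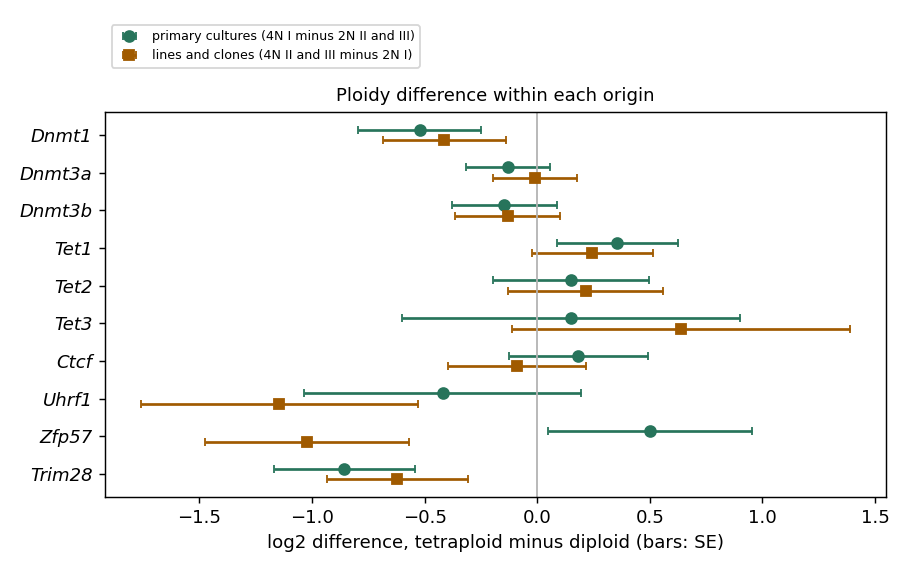
Log2 difference, tetraploid minus diploid, of each member within primary cultures (circles) and within lines and clones (squares), with the SE of a limma model of 1 mean per ploidy and origin over the 6 arrays. Zfp57 lies at 0.50 in primary cultures and at -1.02 in lines and clones, and Dnmt1, Uhrf1 and Trim28 lie below 0 in both.

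Around the members, 148 genes of 9 lists were measured. Of these 86 had a lower tetraploid mean, beside 59.9% of all probe sets, and 62 a higher one. At nominal p under 0.05 there were 15 of the 148 genes, 8 lower and 7 higher, beside 2.06% and 3.08% of all probe sets in those directions. The adjusted threshold was passed by 0 of them (limma). The shares of 59.9%, 2.06% and 3.08% also stand beside the counts of each list below. Of those 8 lower genes 6 belonged to the S phase and mitosis lists. Without tetraploid II, 8 genes were at that p, beside 2.96% of all probe sets.

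Of 14 partners of maintenance methylation 12 had a lower tetraploid mean, beside 59.9% of all probe sets. With 1 array left out that count ranged from 8, without tetraploid II or diploid II, to 13 without diploid III. Among these partners 1 was lower at nominal p under 0.05, beside 2.06%. The median of their log2 differences was -0.11 and ranged from -0.22 without diploid III to -0.016 without tetraploid II. Cdca7, which works with the remodeller HELLS in maintaining methylation, was at 6.50, 5.77 and 7.19 against 8.28, 7.68 and 7.13, a log2 difference of -1.21 (SE 0.45, limma unadjusted p = 0.04). Tetraploid III lay just above diploid III, so the Cdca7 groups overlapped. Dmap1, which encodes a protein that associates with DNMT1, differed by -0.66 (SE 0.28) with tetraploid III inside the diploid range.

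Among 10 methyl-CpG readers, 8 had a higher tetraploid mean and 0 reached nominal p under 0.05. Their median was 0.26 (0.17 without diploid III, tetraploid I or tetraploid II). The 2 with the smallest p went in opposite directions, Zbtb4 by 0.33 (SE 0.15), or 0.20 without diploid I, and Mbd1 by -0.54 (SE 0.27), or -0.28 without tetraploid II. Of 19 demethylation and base excision genes 15 were lower, beside 59.9% of all probe sets, and 4 higher. In each direction 1 was at that p. The median of this list was -0.11 (-0.019 without diploid II, where 11 of the 19 genes were lower). Xrcc1, the scaffold of single-strand break repair, was at 6.33, 6.30 and 6.23 against 6.55, 6.80 and 6.78, a log2 difference of -0.43 (SE 0.11, limma unadjusted p = 0.008). Gadd45g, a stress-induced gene of a family linked to demethylation, was at 10.43, 9.17 and 8.80 against 7.08, 7.25 and 8.51, a log2 difference of 1.85 (SE 0.57, limma unadjusted p = 0.0194). The groups did not overlap for either gene.

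Of 18 genes of the TRIM28 complex and imprint protection, 13 had a higher tetraploid mean, 1 at nominal p under 0.05, and 5 a lower one, with a median of 0.17 that was -0.033 without diploid III and 0.046 without tetraploid I. Arid4a, a chromatin protein linked to imprinting in the mouse, differed by 0.53 (SE 0.20) and Atf7ip, a partner of the methyltransferase SETDB1, by -0.26 (SE 0.12), a value that was -0.0075 when all Atf7ip probe sets were averaged. Of 25 cohesin and CTCF partner genes 18 were higher, 2 at that p, with a median of 0.14 that was 0.038 without diploid III and 0.076 without tetraploid I. Stag1, a cohesin subunit, was at 8.23, 8.17 and 8.20 against 7.79, 7.81 and 8.05, a log2 difference of 0.32 (SE 0.11). Bptf, a remodeller subunit placed in this list, differed by 0.57 (SE 0.22).

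Of 12 measured histone modifier genes 6 were higher, 2 at nominal p under 0.05, and 6 lower, with a median of 0.049 (0.11 without diploid II and -0.11 without tetraploid II). Setd2, which lays down the histone mark that DNMT3 enzymes read in gene bodies, differed by 0.50 (SE 0.15), and Kmt2a, which lays down a mark that repels them, by 0.43 (SE 0.14). Of 14 methyl donor genes 8 were lower and 6 higher, 1 of the latter at that p, with a median of -0.027 that ranged from -0.34 without diploid III to 0.21 without diploid I. Mat2b, the regulatory subunit of S-adenosylmethionine synthetase, differed by 0.73 (SE 0.28), and Adk, which clears adenosine, by 0.48 (SE 0.34), a value that was 0.10 without diploid III and 0.18 with array weights.

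For comparison, 17 of 21 S phase genes were lower, beside 59.9% of all probe sets, and 2 of these were at nominal p under 0.05, beside 2.06%. The S phase median of -0.24 was -0.13 without tetraploid II and -0.10 without diploid II. The lower S phase count was 13 without tetraploid II, 14 without diploid II and 18 without tetraploid I or diploid I. Of 15 mitosis genes 14 were lower, 4 of these at nominal p, beside the same shares. The mitosis median of -0.88 was -0.58 without tetraploid II. Rrm1, a ribonucleotide reductase subunit, and Mcm3, a helicase subunit, differed by -0.64 (SE 0.25) and -0.72 (SE 0.29), the latter -0.42 without tetraploid II. The mitotic kinase Plk1 and the proliferation marker Mki67 differed by -1.51 (SE 0.27) and -1.06 (SE 0.21).

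**Figure D5:**
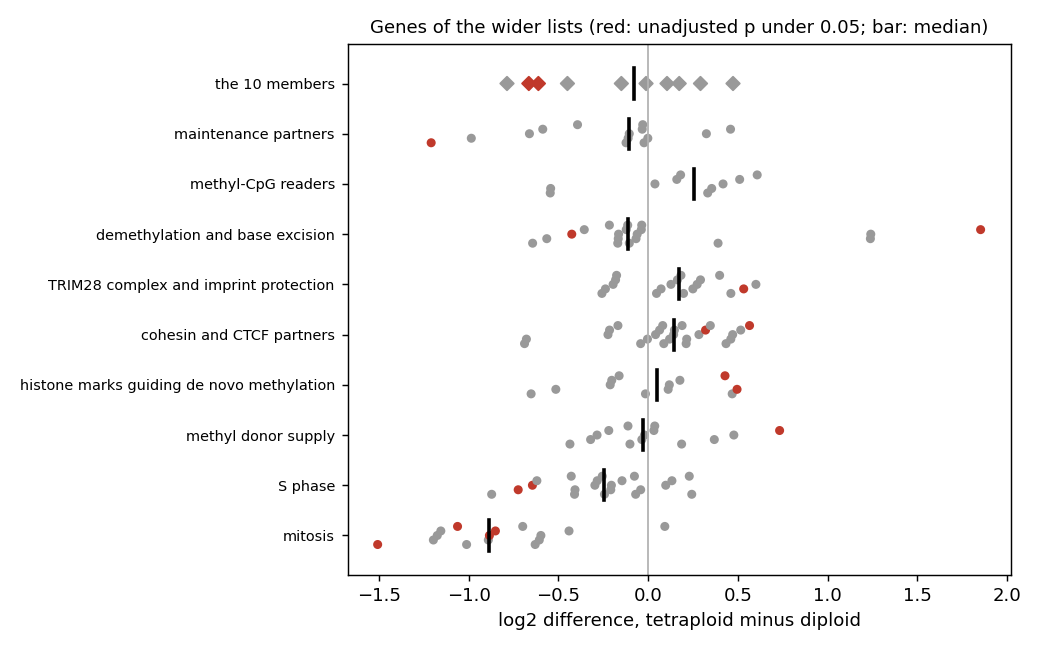
Log2 difference, tetraploid minus diploid, of the 10 members (diamonds) and of each gene in the 9 lists around them (points; n = 3 arrays a group), red where the unadjusted limma p is under 0.05, with each list's median as a bar. The member median is -0.080 and the mitosis median -0.88, and no gene shown passed the adjusted threshold.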

How the data were processed

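The authors deposited RMA values on the log2 scale for 35399 probe sets, and per the submitters' processing notes RMA and Partek were used, without versions. The authors' deposited comparison table gave symbols, p-values without adjustment and folds with a sign (diploid over tetraploid), per the file headers. Its 6 per-sample columns matched no label and were not used. Build and scan batches were not given in the sources used here; loci and promoters are from RefSeq GRCm38.p6. Symbols were updated through RefSeq synonyms.

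Tetraploid minus diploid was tested with limma 3.58.1 in R 4.3.3 over all 6 arrays and 25917 named probe sets, two-sided, with no filter and no covariate and with Benjamini-Hochberg adjusted p-values, and by origin with 1 mean per ploidy and origin. Limma was tested on simulated data. The labels name biological repeats but not separate animals, so the p-values speak only of spread among these samples. The samples are cultures of different origin, and part of their spread may be technical. The number of arrays limits precision. Named genes were all members, the 2 smallest p-values of each list, the 3 closest profiles, H19 and Igf2; single marker genes were picked for mention with their values already known. The members and lists were chosen with earlier results of these data known. Alternatives were other scalings, filters, variance models, array weights, blocks, probe set rules and leaving out each array. Figures used matplotlib 3.10.9 in Python 3.11.15.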

Additional observations from a re-analysis of the deposited data

How the results depend on the processing

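In each of 16 alternatives 0 members passed the adjusted threshold (limma or, in 1 of them, an ordinary linear model; smallest adjusted p = 0.382). Shares in parentheses are over all probe sets in the same setting. The number of members at an unadjusted p under 0.05, 2 in the main analysis (5.14%), was 1 with the filter on dim probe sets (6.08%), the ordinary linear model (4.34%), the intensity trend with robust moderation (4.58%) and the replicate block (5.40%), and 1 to 3 when 1 array was left out (2.96% to 7.37%). The number of members without overlap, 3 (12.1%), ranged from 3 to 6 when 1 array was left out, where groups of 2 and 3 separate more often by construction (17.6% to 25.6%); it was 6 without diploid III (25.5%) and 5 without tetraploid III (25.6%). The 15 wider genes at an unadjusted p under 0.05 became 8 with the filter, 8 with the ordinary linear model, 9 with the intensity trend and 23 with array weights (8.51%), and 8 (2.96%) to 22 (6.93%) when 1 array was left out, without tetraploid II and diploid III. Signs turned for Dnmt3a, Tet3, Ctcf and Zfp57. With 1 array left out, Dnmt3a ranged from -0.069 to 0.068, with 0.028 and 0.0066 without diploid I and diploid II, Tet3 from -0.000467 without tetraploid II to 0.79, Zfp57 from -0.89 to 0.00375 without tetraploid II, and Ctcf from -0.087 without diploid III to 0.21. Ctcf was at -0.061 with array weights. Repeat numbers did not pair the samples, since deviations of same-numbered samples correlated at -0.117, -0.149 and -0.337, and under the replicate block the unadjusted p of Dnmt1 was 0.0721 and that of Trim28 0.0150. The counts by origin were 0 under both alternatives tried. Dnmt3b and Tet1 fell below the dim filter, so it gave no value for them. The files used here hold no measure of signal over background, so its limit on such dim genes was not tested.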
